A study of Mus musculus with 14 samples.

Results

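White blood cells (WBC) sorted from the blood of tumor-bearing mice were compared with WBC of naive mice. The cells were those labelled blood WBC in the tumor-bearing samples, 28 cells from 6 samples, and those of the naive WBC control sample, 21 cells from 1 sample. Together they made up 7 of the 14 samples and 49 of the 648 cells of the series. A further 18 WBC sorted from lung were left out. The series set single cells sorted as circulating tumor cells, as double-positive cells and as WBC side by side, with control cells, to ask where candidate tumor-leukocyte hybrids come from. All mice here were female C57BL/6J aged 6 to 8 weeks. The tumor-bearing mice had received fluorescently labelled B16F10 cells, a mouse melanoma line of the same background, and no drug, and the naive mice are labelled as such with no further treatment. Each cell was sorted by flow cytometry on tumor and host markers and its messenger RNA was read by Smart-seq2, a full-length single-cell protocol.

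White blood cells fall into lineages that carry distinct transcripts. B cells hold the antigen receptor chains Cd79a and Cd79b and the surface protein Ms4a1 (CD20). Neutrophils are short-lived granulocytes that store S100a8 and S100a9, and monocytes and macrophages digest particles with enzymes such as the lysozyme Lyz2. Macrophages are tissue-resident cells, and their genes differ by site: those that lie free in the serous cavities (peritoneum and pleura) are known for the transcription factor Gata6 and its target genes. In tumor-bearing animals, myeloid cells of the blood are known to take up inflammatory and suppressive programmes.

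The 28 tumor-bearing cells held 349760 to 29455000 counts (median 4036000) and the 21 naive cells 283320 to 6004800 counts (median 1053300), so the naive cells were the shallower. Levels below are CPM, that is, counts scaled to a common total for each cell or sum. For tests, the counts of the cells of 1 sample were summed, and the CPM of such sums are scaled by TMM, a correction for composition. The tumor-bearing samples are called T1 to T6 and the naive sample N1. The naive sample carries the tissue label Control, not blood, and its batch label is the sample itself, so batch and condition cannot be told apart. Whether the samples come from separate animals or from pools is not labelled, so p-values measure only the spread between these samples. With a single naive sample, N1 was assumed to vary like T1 to T6.

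The blood WBC of tumor-bearing and of naive mice shared 3 cell types, macrophage-like, B cell-like and neutrophil-like. A cell was given a lineage where at least 5 of that lineage's markers reached 50 CPM. A cell past both the monocyte and the macrophage limit was called macrophage-like. In the tumor-bearing samples 13 of 28 cells were macrophage-like (46.4%, exact 95% binomial interval 27.5% to 66.1%), and they came from all 6 samples. In the naive sample 5 of 21 were macrophage-like (23.8%, 8.22% to 47.2%). B cell-like cells made up 6 of 28 (21.4%, 8.30% to 41.0%, from T1, T3, T4 and T5) against 7 of 21 (33.3%, 14.6% to 57.0%). Neutrophil-like cells made up 3 of 28 (10.7%, 2.27% to 28.2%, from T2 and T5) against 6 of 21 (28.6%, 11.3% to 52.2%). All 3 pairs of intervals overlapped. The intervals cover counting error only, and 1 naive sample allows no test of a share.

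The remaining cells were few. Monocyte-like cells with macrophage markers below the limit were 2 of 21 in the naive sample (9.52%, 1.17% to 30.4%) and 0 of 28 in the tumor-bearing samples, which allows a share of up to 10.7% (3 of 28 cells, the limit used here for a count of 0; the exact interval reaches 12.3%). A single cell of T6 was plasmacytoid dendritic cell-like, the type known for making type I interferon, with 7 of 8 markers and Siglech at 4751 CPM. Cells with markers of 2 lineages were 5 of 28 in the tumor-bearing samples (17.9%, 6.06% to 36.9%) and 1 of 21 in the naive sample (4.76%, 0.120% to 23.8%). No single T cell-like, natural killer cell-like or erythroid cell was found on either side. The most T cell markers in a naive cell were 0 of 12. The erythroid gene Hbb-bs stood at 0 CPM in every macrophage-like, B cell-like and neutrophil-like cell. A naive monocyte-like cell held 245 CPM summed over the 7 erythroid genes measured, with 1 of them past 50 CPM.

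**Figure D1:**
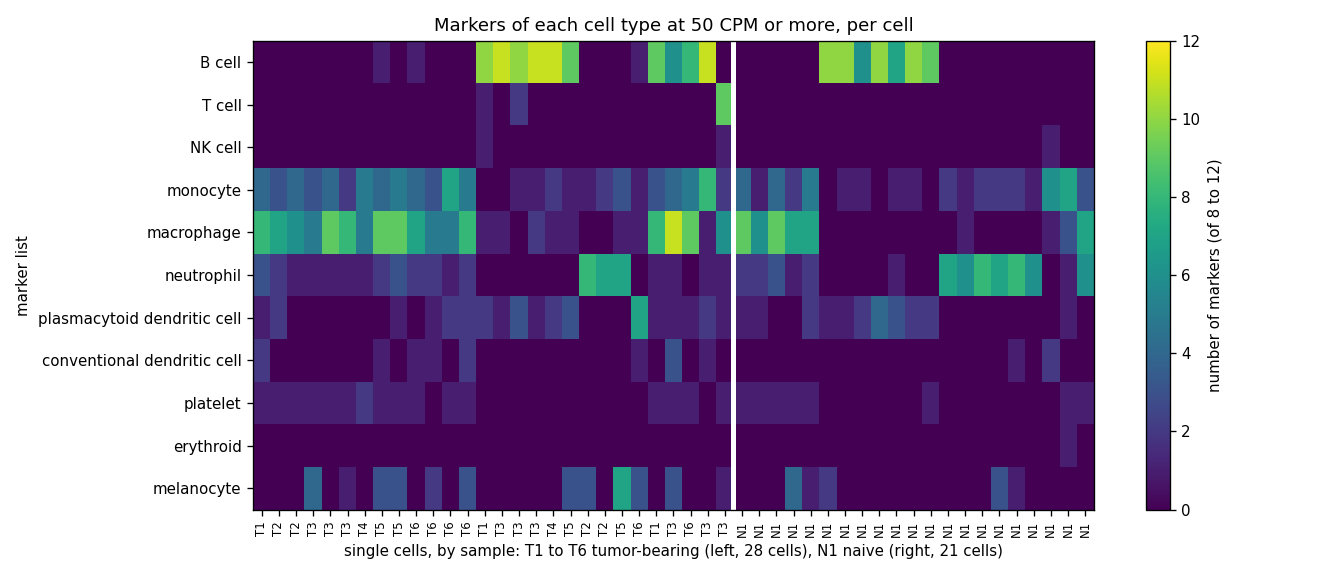
Number of markers of each cell type (rows, lists of 8 to 12 genes) at 50 CPM or more in each of the 49 cells (columns, labelled by sample, tumor-bearing left and naive right of the white line). The 17 cells with B cell markers hold at least 6 of them while all others hold at most 1, and the columns bright in both the B cell and the macrophage row are 3 tumor-bearing cells with markers of 2 lineages.

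The markers that named the cells are given as a description, since they set the classes. Cd79a ranged over 3729.7 to 5485 CPM (median 4479.5) in the tumor-bearing and 1643 to 6844 CPM (median 3819.9) in the naive B cell-like cells, against at most 11.4 CPM in any macrophage-like cell. Lyz2 ranged over 4413 to 117910 CPM (median 45244) in the tumor-bearing macrophage-like cells and 83739 to 123760 CPM (median 95174) in the naive ones. The complement gene C1qa, which blood monocytes carry little of, was at 247 to 3138 CPM (median 1445) and 963 to 4771 CPM (median 2657), and all 18 macrophage-like cells passed 50 CPM. S100a8 ranged over 5141 to 35420 CPM (median 11245) in the tumor-bearing neutrophil-like cells and 26101 to 43053 CPM (median 29773) in the naive ones, and these 2 ranges overlap. Ly6g, the surface marker often used to sort neutrophils, was at most 1.32 CPM in the naive neutrophil-like cells and 0 in the tumor-bearing ones, so the name rests on the other markers. Mitochondrial transcripts made up 0.184% to 0.265% of the counts of the tumor-bearing and 0.0239% to 0.184% of the naive neutrophil-like cells, against 1.47% to 8.03% and 3.10% to 6.57% in macrophage-like cells.

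The gap around the marker limit was wide for most lineages. Cells called for B cell markers held at least 6 of 12 and all others at most 1, and for neutrophil markers at least 6 against at most 3. For macrophage markers 4 cells sat at the limit of 5 and the others held at most 3. Monocyte markers, of which macrophages share many, were not separated: 5 cells held 5 and 8 cells held 4. With every cell thinned to 200000 counts, all 49 cells kept their class. Under a stricter rule of 6 markers at 100 CPM the tumor-bearing share of macrophage-like cells was 35.7% (18.6% to 55.9%). That of B cell-like cells was then 25% and that of cells with 2 lineages 10.7%, while all naive shares stayed as they were. Of the tumor-bearing cells 1 of 28, from T6, was then monocyte-like, and 3 of 28 had no type.

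The 5 tumor-bearing cells with 2 lineages came from T1, T3 and T6. Those with B cell and macrophage markers held 1896 CPM of Cd79a with 603 CPM of C1qa (T1), 597 with 2249 (T3) and 865 with 2991 (T6). A further T3 cell paired 3221 CPM of Cd79a with 12379 CPM of Lyz2, and another the T cell receptor gene Cd3e at 250.5 CPM with 212 CPM of C1qa. This last cell held 9 of 12 T cell markers and was the only one with more than 2. In the naive cell of this kind the macrophage and neutrophil lists met, with 7604 CPM of S100a8 and 2514 CPM of C1qa. The 3 B cell and macrophage cells held 1191968 to 12898914 counts and 3933 to 4985 genes at equal depth, where the tumor-bearing B cell-like cells held 3058 to 5969 and the macrophage-like ones 2415 to 5169. No doublet caller was run on these sorted cells, no 2 cells held identical counts, and whether 2 cells shared a well was not tested. These 6 cells entered no comparison within a type.

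Transcripts of melanocytes, the lineage of the injected tumor, were present at low levels on both sides. The 12 melanocyte genes summed to 10.5 to 2383 CPM in the tumor-bearing cells (median 103) and 8.79 to 1041 CPM in the naive cells (median 58.6), and the ranges overlap. The pigment enzyme Tyrp1 was at 2.56 to 326 CPM (median 37.7) in the tumor-bearing and 0 to 68.5 CPM (median 9.49) in the naive macrophage-like cells. The highest sum was in a neutrophil-like cell of T5, in which 7 of the 12 genes passed 50 CPM. In the naive sample, which had no tumor, 2 cells held at least 3 such genes at 50 CPM. On the tumor-bearing side every cell of T5 did, as did cells of T2, T3 and T6 but none of T1 and T4. As a share of a sample's counts, the melanocyte genes were 0.00198% to 0.0542% in T1 to T6 and 0.00998% in N1 (exact two-sided permutation test, p = 0.714, where 1 sample against 6 cannot go below 0.143). The source of these reads in naive cells was not tested.

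At equal depth, the median number of detected genes per cell was higher in the tumor-bearing samples in each shared type. With 1 naive sample no difference of any size can pass 0.05 in these tests. After thinning every cell to 200000 counts, the median number of genes per macrophage-like cell was 3054 in T1, 2602.5 in T2, 3478 in T3, 5169 in T4, 3499.5 in T5 and 3101 in T6, against 2541 in N1. All 6 were above the naive value, T2 by little, and the exact two-sided permutation test gave p = 0.286 (smallest possible 0.143). Thinned to 100000 counts, T2 was at 2363 and N1 at 2384, so 5 of 6 were above (exact permutation p = 0.429). In B cell-like cells the medians were 4629 (T1), 3449 (T3), 5969 (T4) and 3575 (T5) against 1767 in N1, so all 4 were above it (exact permutation p = 0.2, the smallest possible). The lowest tumor-bearing B cell-like cell held 3058 genes and the highest naive one 2925, so single cells did not overlap either. In the neutrophil-like cells the counts were 1834, 2800 and 4521 against 1044 to 2009 (median 1288.5). Over all cells of a sample the medians were 2602.5 to 5569 against 1767 (6 of 6 above, exact permutation p = 0.286). Without thinning the differences were larger, 5961 ± 1212 (SD, n = 6) against 2921 in macrophage-like cells. Cell size, RNA quality and library preparation were not tested.

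**Figure D2:**
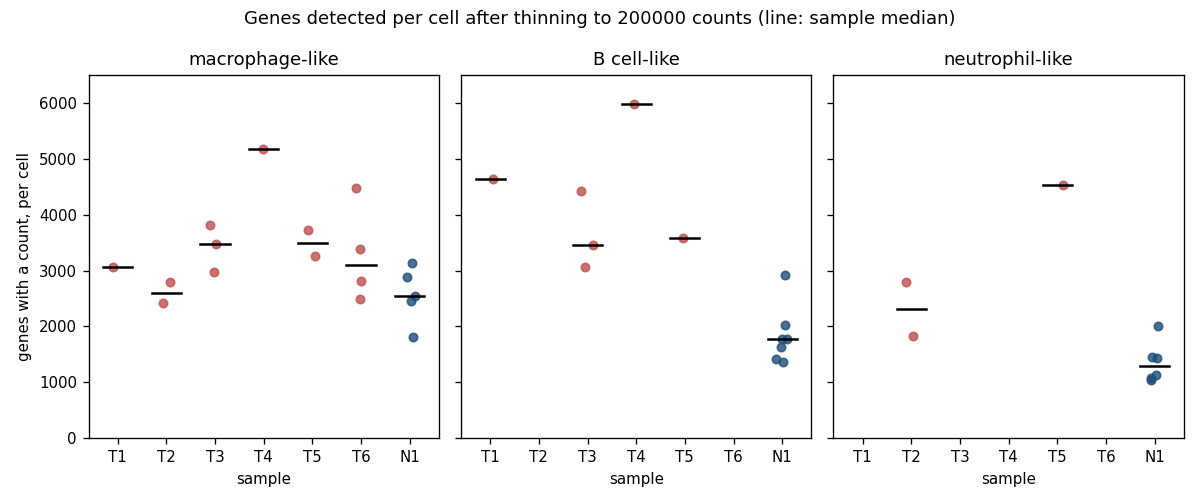
Genes with at least 1 count in each cell after thinning to 200000 counts, by sample and cell type (points are cells, lines sample medians, red tumor-bearing, blue naive). The B cell-like cells of T1, T3, T4 and T5 lie at 3058 to 5969 genes, above the naive range of 1368 to 2925.

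The macrophage-like cells of both sides carried genes known from serous cavity macrophages. Of 12 such genes, listed after the values had been seen, the tumor-bearing cells held 3 to 12 at 50 CPM (median 10) and the naive cells 10 to 12 (median 10), while B cell-like cells held 0 or 1 and neutrophil-like cells 0 to 2. Prg4, a lubricating proteoglycan, was at 7.74 to 14695 CPM (median 7134) in the tumor-bearing and 4560.3 to 9160.3 CPM (median 6809) in the naive cells. Alox15, a lipoxygenase, was at 25.02 to 11927 CPM (median 6709.6) and 2647 to 8577 CPM (median 4039), and the matrix protein fibronectin (Fn1) at 821 to 19345 CPM (median 11443) and 12147 to 20330 CPM (median 18235). Gata6 passed 50 CPM in 6 of 13 tumor-bearing and 1 of 5 naive cells. Of 6 genes of macrophages of other tissues, listed in the same way, Clec4f of liver, Spic of spleen, Vcam1 and Siglecf of lung alveoli passed 50 CPM in 0 of 18 cells. Car4 and Cx3cr1 passed it in 1 tumor-bearing cell each (428 CPM in T3 and 1038 CPM in T6) and in 0 of 5 naive cells. The labels name no serous cavity, and how such cells came into a blood sort was not tested.

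Some macrophage-like cells stood apart within the tumor-bearing side. A T6 cell with 7 monocyte markers held only 7.74 CPM of Prg4 and 25.02 CPM of Alox15, and it carried 223 CPM of Ccr2, the chemokine receptor of inflammatory monocytes, and 39374 CPM of Spp1 (osteopontin). Another T6 cell held 1405 CPM of Ccr2 and 12708 CPM of H2-Aa, an antigen-presenting MHC class II chain, beside 7134 CPM of Prg4. The T1 cell also held H2-Aa, at 7851 CPM. In the other 11 tumor-bearing cells H2-Aa was at most 91.5 CPM, and in the 5 naive ones at most 4.51 CPM. The 2 naive monocyte-like cells held less than 50 CPM of Prg4 and Alox15 and differed from each other: 1 held 4989 CPM of Cd209a and 10314 CPM of H2-Aa, the other 3782 CPM of Ly6c2 and 5397 CPM of Chil3, genes of classical monocytes.

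**Figure D3:**
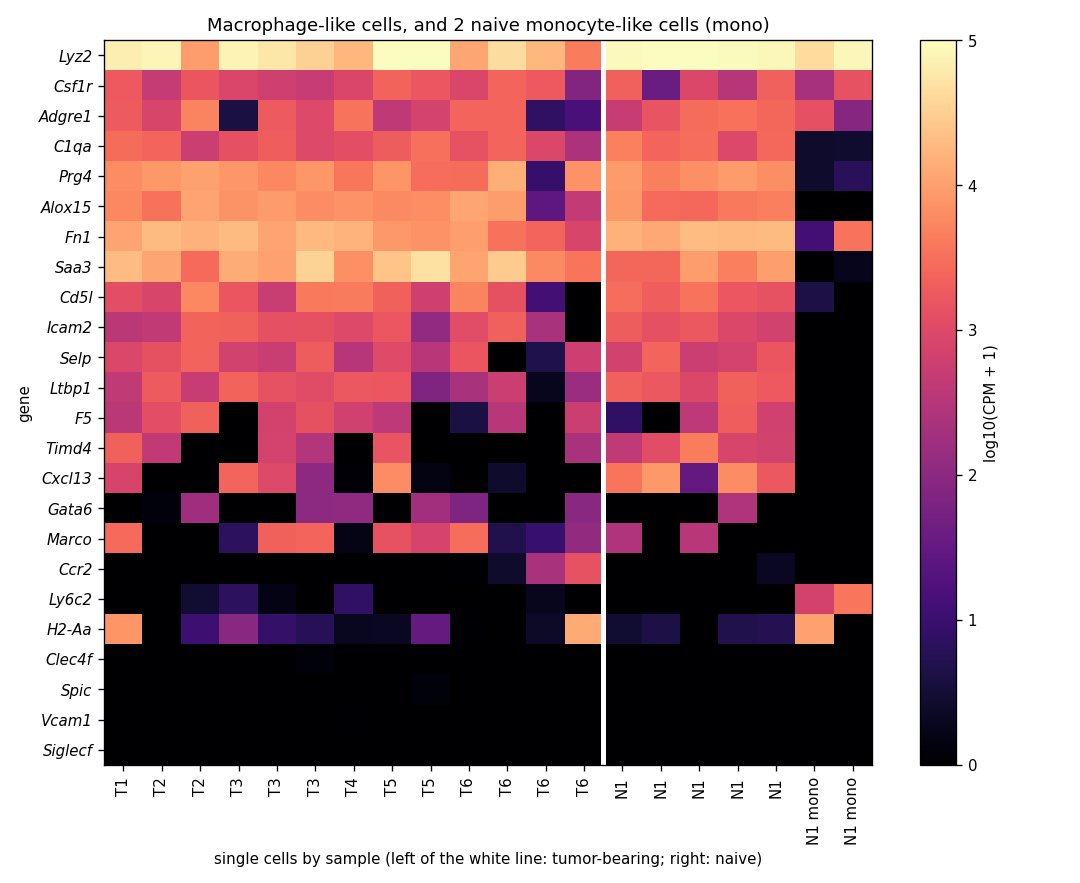
Levels of macrophage, serous cavity, monocyte and other tissue macrophage genes as log10(CPM + 1) in the 13 tumor-bearing and 5 naive macrophage-like cells and the 2 naive monocyte-like cells (mono). The block from Prg4 to Ltbp1 is bright in nearly all macrophage-like cells on both sides of the white line and dark in the 2 monocyte-like cells, apart from Fn1 in 1 of them.

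Within macrophage-like cells, no gene passed an adjusted p of 0.05 between tumor-bearing and naive samples. The edgeR quasi-likelihood test with Benjamini-Hochberg adjustment called 0 of 9154 genes (0%), and 366 (4%) had an unadjusted p under 0.05. DESeq2, run as the other tool on the same sums, called 960 higher (10.5%) and 114 lower (1.25%). In 552 genes (6.03%) all 6 tumor-bearing sums were above the naive sum, and in 1146 (12.5%) all were below it, or 176 (2.35%) and 1256 (16.8%) once cells were thinned to equal counts. T1 and T4 held 1 macrophage-like cell each, so their sums are single cells, while T2 and T5 held 2, T3 held 3 and T6 held 4. Cells were not weighted equally in the sums. In T6, 1 cell gave 29454906 of the 34269533 counts, and in T3, 1 cell gave 8057685 of the 12074983. The tumor-bearing macrophage-like cells held 349760 to 29455000 counts (median 3667500) and the naive ones 1007300 to 1774100 counts (median 1222300). The median difference over all genes tested was 1.77 (log2), 0.89 when thinned, so single differences are read against that shift and not against 0.

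Hilpda, a lipid droplet protein induced by low oxygen, had the smallest p of the macrophage-like comparison (GRCm38 chromosome 6, 29272488 to 29275446, plus strand). Its summed level was 843, 551, 74.4, 202, 122 and 1058 CPM in T1 to T6 and 0 in N1, so the groups did not overlap. It passed 50 CPM in 9 of 13 tumor-bearing cells and in 0 of 5 naive cells, which allows a share of up to 60% of naive cells. With the naive sum set to a floor of 3 counts it was at least 1190-fold higher on average, with an adjusted p of 0.644 by edgeR. Enzymes of glycolysis stood beside it. Triosephosphate isomerase (Tpi1) was at 666, 73.1, 159, 758, 197 and 1258 CPM against 4.13, and it passed 50 CPM in 12 of 13 tumor-bearing and 0 of 5 naive cells (log2 difference 6.97 ± 2.49 (SE), adjusted p = 0.707 by edgeR). The kinase Pgk1 was at 6.44 to 822 (median 93.4) CPM against 2.40, the mutase Pgam1 at 7.66 to 475 (median 80.3) against 0.266, and the pyruvate kinase Pkm at 404 to 3032 (median 750.1) against 209.5. T4 and T6 were the highest in Pgk1 and Pgam1, and T1 and T3 lay close to the naive value in Pgk1.

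Of 16 tested genes of glycolysis and the response to low oxygen, 0 passed the edgeR threshold, 6 were above the naive sum in all 6 samples (Aldoa, Tpi1, Gapdh, Pgk1, Pgam1 and Pkm) and 1 was below it in all (the hexokinase Hk2). Their median log2 difference was 3.31 against 1.77 over all genes. After thinning, 4 of 15 were above and 1 below in all samples. Of all genes 6.03% were above and 12.5% below, or 2.35% and 16.8% after thinning. As a share of counts the list stood at 0.369% to 1.70% (median 0.426%) against 0.270% in N1, with T4 at 1.27% and T6 at 1.70% (exact two-sided permutation test, p = 0.429). Gapdh was at only 2.03 to 18.2 (median 9.18) CPM against 1.06. Gapdh, Tpi1, Pgam1 and Ldha have near-identical pseudogene copies, so their levels depend on how the authors' counting treated shared reads and are uncertain.

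Inflammatory genes varied widely among the tumor-bearing samples. Saa3, an acute-phase protein, was at 25225, 9963, 28830, 5918, 39799 and 11819 CPM in T1 to T6 against 5250.4 in N1, above it in 6 of 6 samples but in 4 of 6 after thinning (log2 difference 1.95 ± 0.67 (SE), adjusted p = 0.651 by edgeR). Serpinb2, a plasminogen activator inhibitor, was at 8720.4, 3361, 2378, 4272, 904 and 5352 CPM against 494, above in 6 of 6 with and without thinning (adjusted p = 0.644 by edgeR). Both were singled out after their values were seen. Prtn3, a granule protease, was at 129 to 674 (median 418) CPM against 50.7 and above in 6 of 6 samples both ways. Chil3, a chitinase-like protein, ranged from 1.02 to 638 (median 55.0) CPM against 0. The cytokine Il1a was at 4751, 0, 0, 0.776, 123 and 424 CPM, high in T1 and T6 and near 0 in T2, T3 and T4. Spp1 was at 1.02, 982, 0.984, 10.6, 0 and 5371 CPM, high in T2 and T6, while the arginase Arg1 was at 34.5, 2164, 801, 20251, 0 and 22973 CPM against 153. The T6 sum of Spp1 rests in part on the cell without Prg4.

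MHC class II genes were highest in T1, followed by T6. H2-Aa was at 9566, 2.03, 8.95, 0.882, 20.01 and 529 CPM in T1 to T6 against 2.40 in N1, and its partner H2-Ab1 at 14748, 2.84, 13.2, 0.776, 229.5 and 834 against 3.33. T3 was also above N1 in both genes, and T5 more so. Of 9 tested genes of this list, 0 passed the threshold and 0 lay outside the naive value in one direction in all samples.

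Immediate early genes, which switch on quickly after stimulation or cell handling, took a smaller share of the counts in each tumor-bearing macrophage-like sum than in N1, with no member past the threshold. Btg2, an antiproliferative member, was at 1224, 972, 242, 172, 189.6 and 123 CPM against 1970.2, below in 6 of 6 (log2 difference -2.02 ± 1.14 (SE), adjusted p = 0.768 by edgeR). Atf3, a stress-induced transcription factor, was at 1.53, 0.406, 199, 0.0353, 152 and 104 CPM against 419, also below in all. Fos overlapped, with T2 and T5 above N1, at 709.9, 5305, 2629, 761, 7154 and 522 CPM against 5219.6. Of 15 tested members 0 passed the threshold, 0 were above and 4 below the naive sum in all samples (Jund, Egr1, Atf3 and Btg2), where 12.5% of all genes were below, and 10 were below after thinning, where 16.8% of all genes were. The median log2 difference was -0.996, against 1.77 over all genes. The list took 0.483% to 2.78% of the counts (median 1.56%) against 3.28% in N1, below in 6 of 6 (exact two-sided permutation test, p = 0.143, the smallest possible; Benjamini-Hochberg adjusted p = 0.857 over 36 lists). The part of cell handling in this was not tested.

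In the other lists 0 genes passed the threshold either. Genes of neutrophil granules and maturation took 0.0285% to 0.110% of the counts (median 0.0665%) against 0.00735% in N1, above in 6 of 6 (exact two-sided permutation test, p = 0.143, the smallest possible; adjusted p = 0.857 over 36 lists). Genes of suppressive myeloid cells took 0.558% to 3.44% against 0.548% and immune checkpoint genes 0.166% to 0.374% against 0.152%, both above in 6 of 6, although suppressive myeloid genes were above in 5 of 6 with each cell weighted equally (exact permutation p = 0.429 and 0.286 over sums). In all, 5 of 36 lists were above and 5 below in 6 of 6 samples. Of 16 proliferation genes 5 were above and 1 below the naive sum in all samples, against 6.03% and 12.5% of all genes. After thinning 0 of 14 were above and 1 below, against 2.35% and 16.8% of all genes. The proliferation genes had a median log2 difference of 8.87 that rests in part on 8 genes at 0 in N1 (6.28 with these at their bound). As a share of counts they overlapped, at 0.0636% to 0.526% against 0.101%. The chaperone gene Dnajb1 was at 0.766, 0.406, 22.8, 0, 0.87 and 0.152 CPM against 355, whereas the co-chaperone Bag3 was at 96.8, 2.44, 28.3, 80.7, 223 and 176 against 0. Of 14 tested interferon response genes 0 were above and 3 below the naive sum in all samples, against 6.03% and 12.5% of all genes. Xaf1 was among those below, at 0 to 81.9 (median 0.145) CPM against 197. Of 18 ribosomal and translation genes 3 were above and 0 below, against 6.03% and 12.5% of all genes. After thinning 0 of these 18 were above and 5 below, against 2.35% and 16.8% of all genes, so this direction depends on depth. As a share of counts these genes took 1.69% to 2.09% against 2.19% (below in 6 of 6, exact permutation p = 0.143, but in 5 of 6 with each cell weighted equally). The other 4 genes with the smallest p rested on few naive cells. Ulk2, a kinase of autophagy, was at 1021 and 888 CPM in 2 naive cells and 41.8 in another, and Zfp763, the vessel growth factor Angpt1 and the ion carrier Slc12a2 each came from 1 naive cell (1495, 1208 and 1427 CPM).

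**Figure D4:**
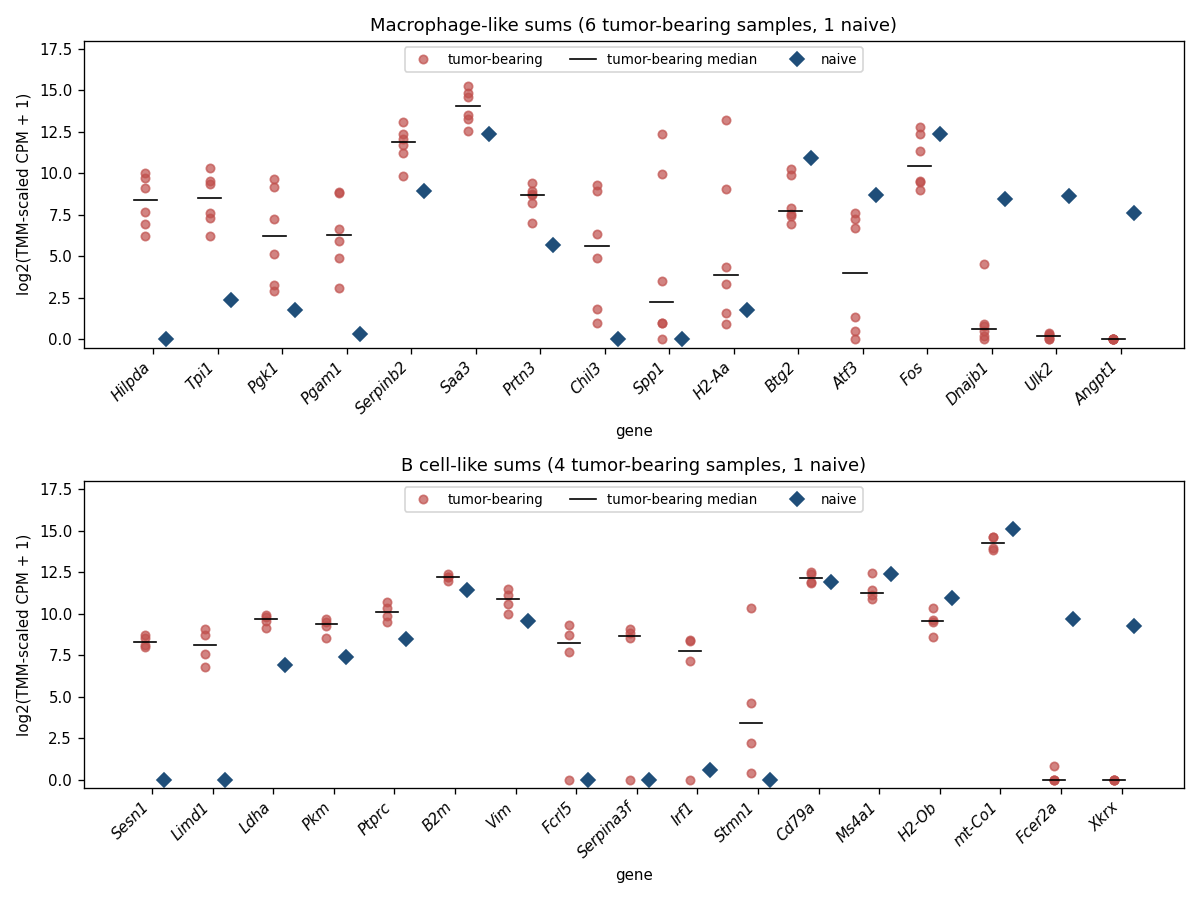
Levels as log2(TMM-scaled CPM + 1) of the summed macrophage-like (top) and B cell-like (bottom) cells for the named genes, with 1 red point per tumor-bearing sample, a line at their median and a blue diamond for the naive sample. In Hilpda and Tpi1 all 6 red points lie above the diamond, in Btg2, Atf3 and Dnajb1 all lie below it, and in H2-Aa and Spp1 a few samples stand far above the rest.

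Within B cell-like cells no gene passed the threshold either, with 0 of 9005 called by edgeR (0%) and 325 (3.61%) at an unadjusted p under 0.05. DESeq2 called 1179 higher (13.1%) and 181 lower (2.01%). All 4 tumor-bearing sums lay above the naive sum in 1170 genes (13%) and below it in 1758 (19.5%), or 421 (6.55%) and 1666 (25.9%) after thinning. The median difference over all genes was 1.42 (log2), 0.36 after thinning. The tumor-bearing B cell-like cells held 2047400 to 21160000 counts (median 12579000) and the naive ones 490220 to 6004800 counts (median 998730). Only T3 held more than 1 such cell, so the sums of T1, T4 and T5 are single cells. In T3, 1 cell gave 21159642 of the 37938858 counts. In N1, 1 cell gave 6004825 and another 2746371 of the 12659115 counts.

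The mitochondrial gene mt-Co1, a subunit of cytochrome oxidase, had the smallest p (chromosome M, 5328 to 6872, GRCm38). It was at 15831, 24775, 24970 and 14388 CPM in T1, T3, T4 and T5 against 34639 in N1, so the groups did not overlap (log2 difference -0.79 ± 0.16 (SE), adjusted p = 0.055 by edgeR). With cells thinned to equal counts mt-Co1, mt-Cytb and mt-Nd1 passed the threshold as lower in tumor-bearing samples, together with Fcer2a (mt-Co1 log2 difference -1.36). With the stricter cell type rule, or with limma (another tool) on mean log2 CPM per cell, no gene passed. Over all alternatives the log2 difference of mt-Co1 ranged from -1.36 to -0.65. Unthinned, the number that passed was 0 without T5, 1 without T4 (mt-Co1), 3 without T1 (mt-Co1, Xkrx and Fcer2a) and 4 without T3 (mt-Co1, mt-Cytb, mt-Nd1 and Eef1a1). Mitochondrial transcripts took 3.14% to 9.23% of the counts of the tumor-bearing B cell-like cells (median 3.56%) and 3.83% to 15.4% of the naive ones (median 7.92%), and these ranges overlap. The naive cell with the most counts had the lowest naive share, 3.83%, and it weighs most in the unthinned naive sum. A high mitochondrial share is known as a sign of damaged cells, and its part in the other B cell differences was not tested.

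Fcer2a, the low-affinity IgE receptor (CD23) of follicular B cells, and Xkrx came next, and each rested on 2 naive cells. Fcer2a was at 3902 and 5080.5 CPM in these cells, near 0 in the other 5 naive cells and at most 0.977 CPM in the 6 tumor-bearing cells (adjusted p = 0.060 by edgeR). Passing 50 CPM in 0 of 6 cells allows a share of up to 50%. Xkrx was at 717 and 1036 CPM in 2 others and 0 in the tumor-bearing sums (adjusted p = 0.055 by edgeR). Sesn1, a stress-induced regulator of growth signalling, and Limd1, an adaptor protein, went the other way. Sesn1 was at 426, 271, 257 and 364 CPM against 0 and passed 50 CPM in 4 of 6 against 0 of 7 cells. Limd1 was at 411, 541, 189.6 and 111 CPM against 0, in 4 of 6 against 0 of 7 cells. Both had an adjusted p of 0.749 by edgeR, and 0 of 7 cells allows a share of up to 42.9%.

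Genes of B-1 cells, an innate-like B cell subset of the serous cavities, were present on both sides. Of 8 such genes, listed after the values had been seen and so given as a description, the 6 tumor-bearing cells held 3 to 8 at 50 CPM (median 5.5) and the 7 naive cells 0 to 5 (median 1), and the numbers were the same after thinning. The sums did not show this difference. In all 4 samples 0 of the 8 genes were above N1 and 2 below it, against 13% and 19.5% of all genes. Their median log2 difference was -0.35 against 1.42 over all genes, and 0.81 against 0.36 after thinning. The Fc receptor-like gene Fcrl5 was at 421, 624.8, 206 and 0 CPM against 0, in 5 of 6 tumor-bearing and 0 of 7 naive cells (adjusted p = 0.749 by edgeR). Zcwpw1, a reader of histone marks, was found in 3 of 6 and 0 of 7 cells, and the transcription factors Zbtb32 and Bhlhe41 in 5 of 6 and 4 of 6 tumor-bearing against 4 of 7 and 3 of 7 naive cells. The scaffold protein Ahnak passed 50 CPM in 6 of 6 against 3 of 7 cells. Of the follicular genes beside Fcer2a, listed in the same way, the chemokine receptors Cxcr5 and Ccr7 passed 50 CPM in 6 of 6 and 4 of 6 tumor-bearing against 5 of 7 and 4 of 7 naive cells. The transcription factor Klf2 passed it in 5 of 6 against 5 of 7 and the complement receptor Cr2 in 1 of 6 against 1 of 7, so these members did not show the pattern of Fcer2a. The B-1 marker Cd5 passed 50 CPM in 2 of 6 and 0 of 7 cells. The immunoglobulin genes Ighm, Ighd and Igkc were not analysed here.

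**Figure D5:**
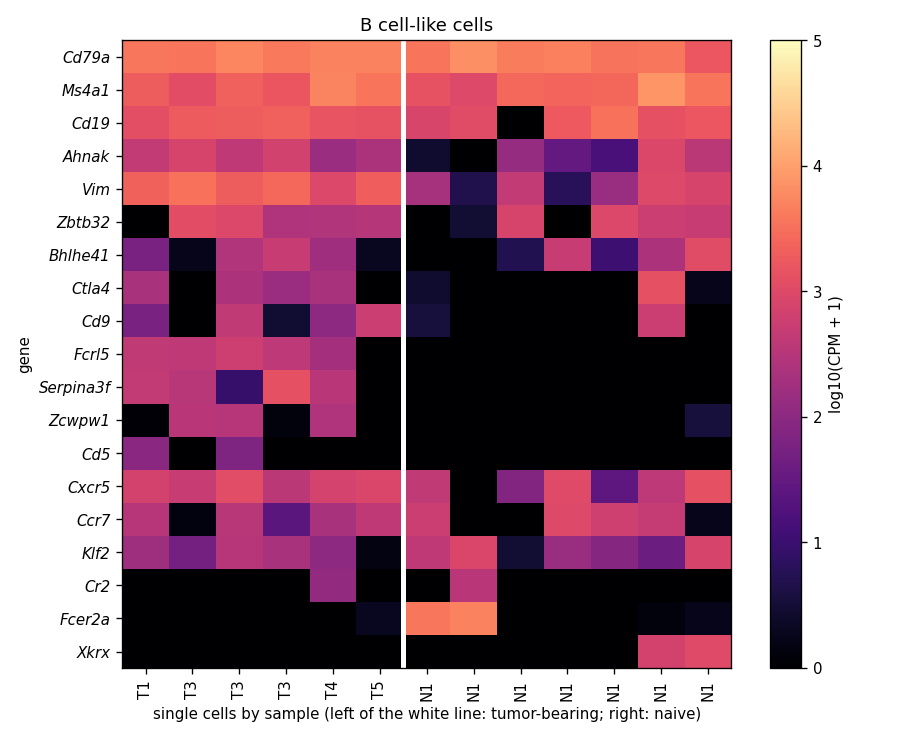
Levels as log10(CPM + 1) of B cell, B-1 and follicular genes in the 6 tumor-bearing and 7 naive B cell-like cells. Fcrl5 is lit in 5 of 6 cells left of the white line and in 0 of 7 right of it, and Fcer2a and Xkrx are each lit in 2 naive cells.

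Among the other genes of the B cell sums, Ldha, Ptprc, B2m and Vim were above the naive sum in all 4 samples, and H2-Ob and Eef1a1 below it. The lactate dehydrogenase Ldha was at 758, 962, 570.3 and 905 CPM against 117, in 6 of 6 against 2 of 7 cells (log2 difference 2.77 ± 1.30 (SE), adjusted p = 0.749 by edgeR). The phosphatase Ptprc (CD45), carried by all leukocytes, was at 936, 1276, 1659 and 729 CPM against 359.6. Of the 12 tested genes of its list of leukocyte-wide genes 1 was above and 3 below in all samples, against 13% and 19.5% of all genes. The median log2 difference of this list was -0.04, against 1.42 over all genes. The MHC class I light chain B2m was at 4808, 4069, 5424 and 4669.7 against 2745. The filament protein Vim was at 2248, 2823, 1004 and 1554 CPM against 743. All 4 genes were above in 4 of 4 samples with and without thinning. The log2 differences of Ptprc, B2m and Vim were 1.68, 0.79 and 1.36, so B2m and Vim lay below the shift of 1.42 over all genes. The B cell markers Cd79a (3769.5, 5756, 5301 and 3729 CPM against 3868) and Ms4a1 (1882, 2183, 5501 and 2696 against 5395) overlapped. H2-Ob, a regulator of MHC class II loading, was at 719, 1286, 377 and 785 CPM against 1973, and the elongation factor Eef1a1 at 14054, 18267, 13861 and 11391 against 20851, both below in 4 of 4 samples.

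Of 16 proliferation genes tested in B cells 0 passed the threshold. In all 4 samples 12 were above and 1 below the naive sum, against 13% and 19.5% of all genes. After thinning 2 of 13 were above and 1 below, against 6.55% and 25.9% of all genes. T1 held most of the signal, with the microtubule regulator Stmn1 at 1268, 0.317, 23.5 and 3.66 CPM and the cycling marker Mki67 at 332, 0.317, 0.418 and 57.1 CPM in T1, T3, T4 and T5, and both at 0 in N1. The list took 1.10% of the counts in T1 and 0.111% to 0.226% in T3, T4 and T5, against 0.0913% in N1 (above in 4 of 4, but in 2 of 4 with each cell weighted equally). Of 15 glycolysis genes 5 were above and 2 below in all 4 sums, against 13% and 19.5% of all genes. Interferon response genes took 0.0880% to 0.148% of the counts against 0.0447%, genes of NF-kB and inflammatory cytokines 0.133% to 0.188% against 0.0425%, and MHC class I genes 1.43% to 1.75% against 1.23%. Genes of B cell activation took 0.107% to 0.251% against 0.333%, and those of apoptosis and p53 0.0930% to 0.121% against 0.182%. Each of these 5 lists was on one side in 4 of 4 samples (exact two-sided permutation test, p = 0.2, the smallest possible, and 0.9 adjusted over 36 lists). In all, 8 of the 36 lists were above and 5 below in 4 of 4 samples. Of 15 tested interferon response genes 1 was above and 2 below in all 4 sums, and of 13 NF-kB genes 1 and 0. Of 12 MHC class I genes 3 were above and 1 below. Of 13 B cell activation genes 0 and 3 were, and of 11 apoptosis and p53 genes 1 and 2. Of all genes 13% were above and 19.5% below. With genes at 0 in N1 at their bound, the list medians (log2) were 3.92, 3.18, 0.24, -0.57 and -0.46 in this order. Over all genes the median was 1.20. Single genes of these lists varied. Irf1, an interferon-induced transcription factor, was at 339.8, 139.7, 319 and 0 CPM against 0.504. The adhesion molecule Icam1 was at 274, 0.0317, 1.05 and 735 against 0.

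Neutrophil-like cells were too few for a test, with 3 cells from 2 tumor-bearing samples, so the values below come with none. They held 469920 to 763890 counts (median 647120) against 283320 to 1520500 counts (median 588390) in the naive ones. Mmp8, Il36g and Asprv1 were named for the smallest p over all blood WBC, which includes these same cells, so their absence here is no separate result. Cxcl2 and Il1b were chosen after their values were seen, and Il1r2 and Retnlg are among the markers that set the class. The share of all genes whose ranges lay apart was not counted. The collagenase Mmp8 (GRCm38 chromosome 9, 7558456 to 7568485, plus strand), a late granule enzyme, was at 0 in all 3 tumor-bearing cells and 5.05 to 7756 CPM (median 1181) in the 6 naive ones. The cytokine Il36g was at 0 in all 3 and passed 50 CPM in 5 of 6 naive cells, and the protease Asprv1 was at 0 in all 3 and present in 4 of 6. The chemokine Cxcl2 was at 1015 to 6277 CPM (median 5425) against 0 to 149.9 CPM (median 1.31), and the decoy receptor Il1r2 at 3599 to 11687 CPM (median 4625) against 0 to 3269 CPM (median 477), so both ranges lay apart. Retnlg, a resistin-like protein of neutrophils, was at 334 to 3524 CPM (median 951) against 2587 to 10614 CPM (median 5529), so the ranges overlap. The cytokine Il1b overlapped, at 919 to 12936 CPM (median 9109.9) against 5781 to 24172 CPM (median 17363).

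With all blood WBC of a sample summed, 4 of the 5 genes with the smallest p (Mmp8, Il36g, Asprv1 and Slc40a1) passed 50 CPM in naive neutrophil-like cells and in no B cell-like or macrophage-like cell, while Xkrx came from 2 naive B cell-like cells. Of 11450 genes edgeR called 0 (0%), 392 (3.42%) had an unadjusted p under 0.05, and DESeq2 called 1069 higher (9.34%) and 110 lower (0.961%). In 861 genes (7.52%) all tumor-bearing sums were above the naive sum and in 1558 (13.6%) below it, or 444 (4.54%) and 1631 (16.7%) after thinning. Mmp8 was at 311 CPM in N1 and at most 0.0436 in T1 to T6 (adjusted p = 0.256 by edgeR). Il36g (334 CPM), Asprv1 (274), Xkrx (250.5) and the iron exporter Slc40a1 (264) followed, each with an adjusted p of 0.668 by edgeR. S100a8 was at 5.77, 6570.1, 0, 17.4, 255 and 58.0 CPM against 5045, highest in T2 and T5, the samples that held neutrophil-like cells, with T2 above N1 and the others below it. Cd79a was at 2336, 0.956, 2611, 2209, 1075 and 174 CPM against 1611, and T2, which held no B cell-like cell, was lowest. In these sums fewer cells of a type and less RNA per cell cannot be told apart.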

How the data were processed

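The authors deposited raw counts per gene and cell for 21138 genes, read by Smart-seq2. The submitters' processing notes name Trim Galore, HISAT2, SAMtools, featureCounts, BWA, Picard and the build mm10, with neither role, order nor version. Whether PCR copies were removed is not stated, no molecular identifiers are named, and 62.5% of nonzero values were even, so intervals and floors (3 counts) cover counting error only. The matched DNA data were not analysed here.

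Members and gene lists were chosen with earlier results of these data known. Cells were typed by at least 5 markers at 50 CPM and thinned without replacement to 200000 counts; the total counts per cell, given in the text, set the precision. Summed counts per sample (at least 2 cells for all WBC, 1 within types) were tested with edgeR 4.0.16 (quasi-likelihood test, TMM, filterByExpr, Benjamini-Hochberg at 0.05, tumor-bearing sums against the 1 naive sum) in R 4.3.3, after a check on simulated counts. Types needed 3 naive cells and 3 tumor-bearing samples. DESeq2 1.42.0, limma 3.58.1 (pseudocount 1), other scalings, no filter, thinned cells, stricter types and left-out samples were alternatives. Two-sided exact permutation tests used SciPy 1.17.1. Named genes are the 12 largest differences each way among those that passed (none did), otherwise the 5 with the smallest p, then 16 key genes and up to 4 members per list with the largest differences and a mean of at least 20 CPM. Outside this rule, Gapdh, Aldoa, Saa3, Serpinb2, Serpina3f, Vim, Cxcl2, Il1b, the serous cavity, B-1 and follicular genes and the single cells described were chosen after their values were seen, and 1 gene is not reported here. Positions are from GENCODE M21 (GRCm38).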

Additional observations from a re-analysis of the deposited data

Results flagged for a closer look

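In 82 groups of 4 to 6 tumor-bearing samples checked for a value far from the rest, 11 stood apart, where chance gives about 1 in 20. The figure given for each is the gap to the nearest sample as a share of the group's range. For genes it was taken on log2(CPM + 1), not on the CPM printed above. Several are at or near 0 CPM in every tumor-bearing sample, so the gap is a matter of a few counts: Mmp8 (1.00, T4 highest) and Slc40a1 (0.681, T2 highest) over all blood WBC, Slc12a2 (0.700, T1 highest) in macrophage-like cells and Fcer2a (1.00, T5 highest) in B cell-like cells. Dnajb1 in macrophage-like cells was highest in T3 (0.803). In B cell-like cells Irf1 (0.848) and Serpina3f, a serine protease inhibitor (0.943), were lowest in T5, where both were at 0 CPM in its single cell, Bst2, an interferon-induced tether of viruses, was lowest in T1 (0.883), and Psmb9, a subunit of the immunoproteasome, was highest in T3 (0.938). The proliferation share of B cell-like counts was highest in T1 (0.883), and the genes per macrophage-like cell at equal depth were highest in T4 (0.651).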

How the results depend on the processing

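No paired analysis was possible because the naive group is 1 sample. All blood WBC: the count of genes lower in tumor-bearing samples moved from 0 to 110 with DESeq2 (1069 higher), to 3 with limma on mean log2 CPM per cell (Asprv1, Il36g and Mmp8) and to 11 with sums of at least 5 cells, which leave out T1, T2, T4 and T5. Macrophage-like: 14 genes were higher without the filter on low counts (Hilpda, Saa3, Spp1, Arg1, Il1a and H2-Aa among them), DESeq2 called 960 higher and 114 lower, and limma 131 lower. B cell-like: DESeq2 called 1179 higher and 181 lower. Genes lower were 2 with DESeq2 size factors, 3 with TMMwsp, 3 with no filter and 4 with thinned cells, mt-Co1 among them each time, 0 to 4 when 1 sample was left out, and 1 without the Fcer2a cells, an alternative added after seeing the data. Leaving out macrophage-like cells under 1000 CPM of Prg4, added likewise, kept 0 calls. The causes were not tested. Cd79a in B cell-like cells changed from a log2 difference of 0.26 to -0.29 with thinned cells, and Ms4a1 from -0.82 to 0.11 with limma. The other 66 of 68 gene differences kept their sign in every alternative run, but many of these genes were named for a large difference. Where N1 was at 0, as for Hilpda, Sesn1 and Limd1, the sign could not reverse, so this count is no sign of robustness. Depth limits genes near 1 count in the naive cells.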
